A study of Mus musculus with 10 samples.

Results

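The genes described here are the heat shock proteins and molecular chaperones of mouse macrophages. They were taken by symbol: every gene of the count table named Hspa, Hspb, Hspd, Hspe, Hsph or Hsp90, a heat shock factor (Hsf), a numbered J-domain gene (Dnaja, Dnajb, Dnajc), a BAG gene (Bag1 to Bag6) or a subunit of the cytosolic chaperonin (Cct2 to Cct8). The rule found 95 of 23284 genes, of which 77 had enough counts to be tested. By family these were 11 HSP70 genes (9 tested), 3 HSP110 genes (3 tested), 6 BAG genes (6 tested), 3 HSP90 genes (3 tested), 4 DNAJA genes (4 tested), 13 DNAJB genes (10 tested), 28 DNAJC genes (24 tested), 9 CCT genes (8 tested), 2 mitochondrial chaperonin genes (2 tested), 8 small heat shock protein genes (3 tested) and 5 heat shock factor genes (3 tested). A further 3 genes (2 tested) are no chaperones themselves but bind a heat shock protein or factor, and entered because their symbols match the rule.

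The cells were macrophages derived from the bone marrow of C57BL/6J mice, that is, marrow progenitors matured in culture with macrophage colony-stimulating factor. They were left untreated or given Kdo2-lipid A, the lipid part of bacterial lipopolysaccharide that the receptor TLR4 recognises. Kdo2-lipid A was used at 0.03 nM or at 10 nM, and RNA was taken after 1 h or 2 h. Each of these 5 groups had 2 libraries of polyadenylated RNA, 1 from each of 2 independent experiments. No allele or other agent separated the groups, and the labels give neither the age of the mice nor how many mice supplied each culture. There was no untreated culture at 1 h or 2 h, so in every comparison with untreated cells the ligand and the time in culture after its addition cannot be told apart.

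Chaperones bind unfolded proteins and help them reach or keep their native shape. HSP70 proteins do so in cycles of ATP binding and hydrolysis: J-domain proteins (the DNAJ families) deliver the client and speed up hydrolysis, and HSP110 and BAG proteins release the nucleotide again. HSP90 acts later on kinases, receptors and other signalling clients, the CCT ring folds actin and tubulin, and the heat shock factors are the transcription factors that switch on inducible chaperone genes when unfolded proteins accumulate. In macrophages, TLR4 signalling induces a large set of secreted and membrane proteins, which are folded in the endoplasmic reticulum by its own HSP70 and J-domain proteins.

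Some promoters of members carry known stress elements. Sequences are shown for Hspa1b and Hspa1a and for members that hold a full heat shock element or an endoplasmic reticulum stress element. The latter were chosen by the element, whether or not their levels changed. Of the 95 members, 77 matched a RefSeq promoter entry, which spans 250 bases before to 50 bases after the transcription start (build GRCm38.p6). Each sequence below is 5′ to 3′ on the strand of the gene, with the element in capitals. The heat shock element was searched on both strands as 3 units in alternation (GAA, TTC and GAA, with 2 bases of any kind between neighbours). It was in the promoters of 4 of the 77 members (Dnajb6, Hspd1, Hspe1 and Hsph1) and of 0.662% of the 27025 genes in the table. The shorter form with 2 units (GAA and TTC, 2 bases apart), which the longer motif contains, was in 17 of the 77 and in 9.04% of all genes. Hspa1b and Hspa1a, the stress-inducible HSP70 pair, held this shorter form, and over the bases before the start their promoters were identical at 98.8% of positions. Their last 160 bases before the start are at chr17:34959239-34959398 (minus strand) and chr17:34972157-34972316 (minus strand).
Hspa1b: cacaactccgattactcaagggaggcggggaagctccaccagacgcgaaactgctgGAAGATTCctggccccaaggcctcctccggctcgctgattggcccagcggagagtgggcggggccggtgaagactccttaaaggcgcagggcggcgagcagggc
Hspa1a: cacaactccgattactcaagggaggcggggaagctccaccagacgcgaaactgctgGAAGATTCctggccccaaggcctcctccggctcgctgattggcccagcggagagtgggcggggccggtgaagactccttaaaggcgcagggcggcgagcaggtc
Dnajb6, a J-domain gene, held the full element with its first base at −46 and −127 from 2 of its starts. The 160 bases before the nearer start are shown, at chr5:29735738-29735897 (plus strand). Hspe1 and Hspd1, the mitochondrial chaperonin pair, are transcribed away from each other and share an element, shown for Hspe1 at chr1:55087988-55088147 (plus strand). Hsph1, an HSP110 gene, held one just after its start, of which 20 bases are shown, at chr5:149636287-149636306 (minus strand).
Dnajb6: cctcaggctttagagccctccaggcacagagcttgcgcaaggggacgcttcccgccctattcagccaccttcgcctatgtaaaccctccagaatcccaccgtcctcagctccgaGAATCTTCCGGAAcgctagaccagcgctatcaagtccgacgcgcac
Hspe1: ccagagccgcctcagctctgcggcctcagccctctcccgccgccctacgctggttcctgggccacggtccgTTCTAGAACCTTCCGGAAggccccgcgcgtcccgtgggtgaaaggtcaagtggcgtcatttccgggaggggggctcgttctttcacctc
Hsph1: tgcagaTTCTGGAAAGTTCt
The endoplasmic reticulum stress element, searched on both strands as CCAAT and CCACG with 9 bases of any kind between them, was in 3 of the 77 promoters and in 0.137% of all genes. The 3 were Hspa5 at chr2:34771930-34772089 (plus strand), Hsp90b1 at chr10:86705445-86705674 (minus strand, with 2 copies in opposite orientation) and Dnajc3 at chr14:118937772-118937931 (plus strand).
Hspa5: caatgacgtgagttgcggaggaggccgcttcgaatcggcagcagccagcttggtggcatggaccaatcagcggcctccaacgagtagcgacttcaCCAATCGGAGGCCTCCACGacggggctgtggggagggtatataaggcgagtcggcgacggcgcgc
Hsp90b1: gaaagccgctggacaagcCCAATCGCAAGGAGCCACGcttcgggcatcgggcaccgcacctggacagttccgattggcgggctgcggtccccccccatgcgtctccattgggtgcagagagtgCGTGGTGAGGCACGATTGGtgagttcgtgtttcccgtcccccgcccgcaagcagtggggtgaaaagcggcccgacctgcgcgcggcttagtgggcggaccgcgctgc
Dnajc3: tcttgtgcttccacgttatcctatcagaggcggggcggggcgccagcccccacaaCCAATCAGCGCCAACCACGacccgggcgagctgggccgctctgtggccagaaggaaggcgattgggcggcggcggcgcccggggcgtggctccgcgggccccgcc
A match to the NF-kB consensus was in 10 of the 77 promoters and in 9.55% of all genes. The 10 were Dnajb5, Dnajc4, Hsf3, Hspa1a, Hspa1b, Hspa12a, Hspb6, Hspb11, Hspd1 and Hspe1. These matches describe the letters only, and binding of a factor was not measured.

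The libraries held 33179599 to 42167096 counts, of which the 95 genes took 0.833% to 0.946%. Levels below are in CPM, a gene's counts relative to the total of its library, scaled with the trimmed mean of M-values (TMM). Where 2 values are given, they are experiments 1 and 2. The TMM factors were 0.775 to 0.897 at 10 nM and 1.09 to 1.15 elsewhere, so the scale matters for small changes: scaling by library totals instead moved the median of all genes by −0.38 at 1 h and −0.59 at 2 h of 10 nM (log2, against untreated). Macrophage markers (9 of 11 in the table, none at 0 in all libraries) summed to 24132 to 27346 CPM without or with 0.03 nM Kdo2-lipid A and to 31803 to 33269 CPM at 10 nM. Neutrophil markers (7 of 8 in the table) summed to 18.4 to 25.6 CPM in untreated cells and 30.7 to 37.6 CPM after 2 h of 10 nM. Dendritic cell markers (5 of 5 in the table) summed to 7.18 to 9.60 CPM in untreated cells and 13.7 to 13.8 CPM after 2 h of 10 nM. At that time 3 of 7 neutrophil and 3 of 5 dendritic cell markers were called higher, beside 28.6% of all tested genes. Of 9 macrophage markers 3 were called higher and 1 lower, of 8 stromal markers 1 higher, and of 4 tested B cell markers 1 lower. The sums of B cell, stromal, T and NK cell and erythroid markers were at most 9.74, 86.2, 0.529 and 0.328 CPM. The stromal sum was higher in experiment 2 than in experiment 1 in every group (41.6 and 74.4 CPM in untreated cells). The 2 libraries of 0.03 nM for 2 h differed from each other along gene length (rank correlation of their log2 difference with exon length −0.682 over 8415 genes, against −0.0286 to 0.369 in the other groups). Without both of these libraries, the 141 calls that do not involve their group were all kept. The part of the marker sums in the results below was not tested. In RNA from whole cultures, fewer cells of a type and less RNA per cell cannot be told apart.

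In untreated cells the levels of chaperone genes spanned a wide range. Levels between genes are compared here only per length, as CPM per kilobase of exons (RPKM, mean ± SD of 2 libraries). Hspa8, the constitutive cytosolic HSP70, was the highest member at 674 ± 25.9 RPKM. Hspa5 (BiP, the HSP70 of the endoplasmic reticulum) was at 291 ± 6.61, Hsp90ab1 (constitutive cytosolic HSP90) at 275 ± 10.5 and Hsp90b1 (HSP90 of the endoplasmic reticulum) at 246 ± 10.4 RPKM. The libraries of these 3 genes did not overlap, but with 2 libraries each their order was not tested. Only these 4 members passed 100 RPKM, while 27 of the 95 lay below 1 RPKM. The stress-inducible Hspa1b and Hspa1a were at only 0.785 ± 0.151 and 0.36 ± 0.0152 RPKM, and the small heat shock protein Hspb1 was at 0.453 ± 0.492. Hspb1 and Hspb6 are highly expressed in other tissues such as muscle.

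After 10 nM Kdo2-lipid A a broad set of chaperone genes was higher than in untreated cells on the TMM scale, led, among genes with a mean log2 CPM of at least 1, by Hspa1b, Hspa1a and Dnajb4, and a smaller set was lower, led by Dnajc28. A gene is called here where edgeR's quasi-likelihood test (two-sided) gave a p below 0.05 once adjusted (Benjamini-Hochberg) over the 12918 tested genes. After 1 h at 10 nM, 23 of the 77 tested members (29.9%) were higher than in untreated cells and 7 (9.09%) lower, against 18.5% and 18.3% of all tested genes (36.9% in either direction). After 2 h, 35 (45.5%) were higher and 10 (13.0%) lower, against 28.6% and 30.1% of all genes (58.7% in either direction). The counts of the 95 genes summed to 7548 ± 150.8 CPM in untreated cells, 10294 ± 70.6 after 1 h and 12046 ± 50.8 after 2 h of 10 nM (mean ± SD, n = 2, TMM scale). As a share of the library totals they took 0.876% and 0.858%, 0.915% and 0.919%, and 0.946% and 0.936%, a much smaller difference in which the groups did not overlap. Such sums weigh the most abundant genes most. The means of Hspa8 and Hspa5 were 1418 and 762 CPM in untreated cells and 2510 and 1763 CPM after 2 h of 10 nM. The median log2 change of the tested members was 0.10 at 1 h and 0.16 at 2 h, beside −0.02 and −0.03 over all tested genes. With library totals as the scale the splits turned to 14 higher and 42 lower at 1 h and to 17 higher and 44 lower at 2 h. All tested genes turned too on that scale, to 9.91% higher and 52.3% lower at 1 h and 14.7% and 61.1% at 2 h, with a median log2 change of −0.38 and −0.59 beside −0.27 and −0.40 for the members. In all, 14 genes at 1 h and 17 at 2 h were called higher on both scales. The 14 were Hspa1a, Hspa1b, Hspa1l, Hspa5, Hspa8, Hspa13, Hsp90aa1, Dnaja1, Dnaja2, Dnajb2, Dnajb4, Dnajb5, Dnajb6 and Bag3, and the further 3 at 2 h were Cct3, Cct8 and Dnajc12.

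At 0.03 nM few members were called, and those at 2 h. After 1 h edgeR called none of the 77 tested members (1.42% of all genes were called higher and 1.53% in either direction), with 1 at an unadjusted p below 0.05, and DESeq2 and limma also called 0. After 2 h, 8 members (10.4%) were higher and 1 (1.30%) lower, against 6.45% and 3.37% of all genes (9.82% in either direction). With library totals as the scale this split was 6 higher and 3 lower, against 5.30% and 5.64% of all genes.

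**Figure D1:**
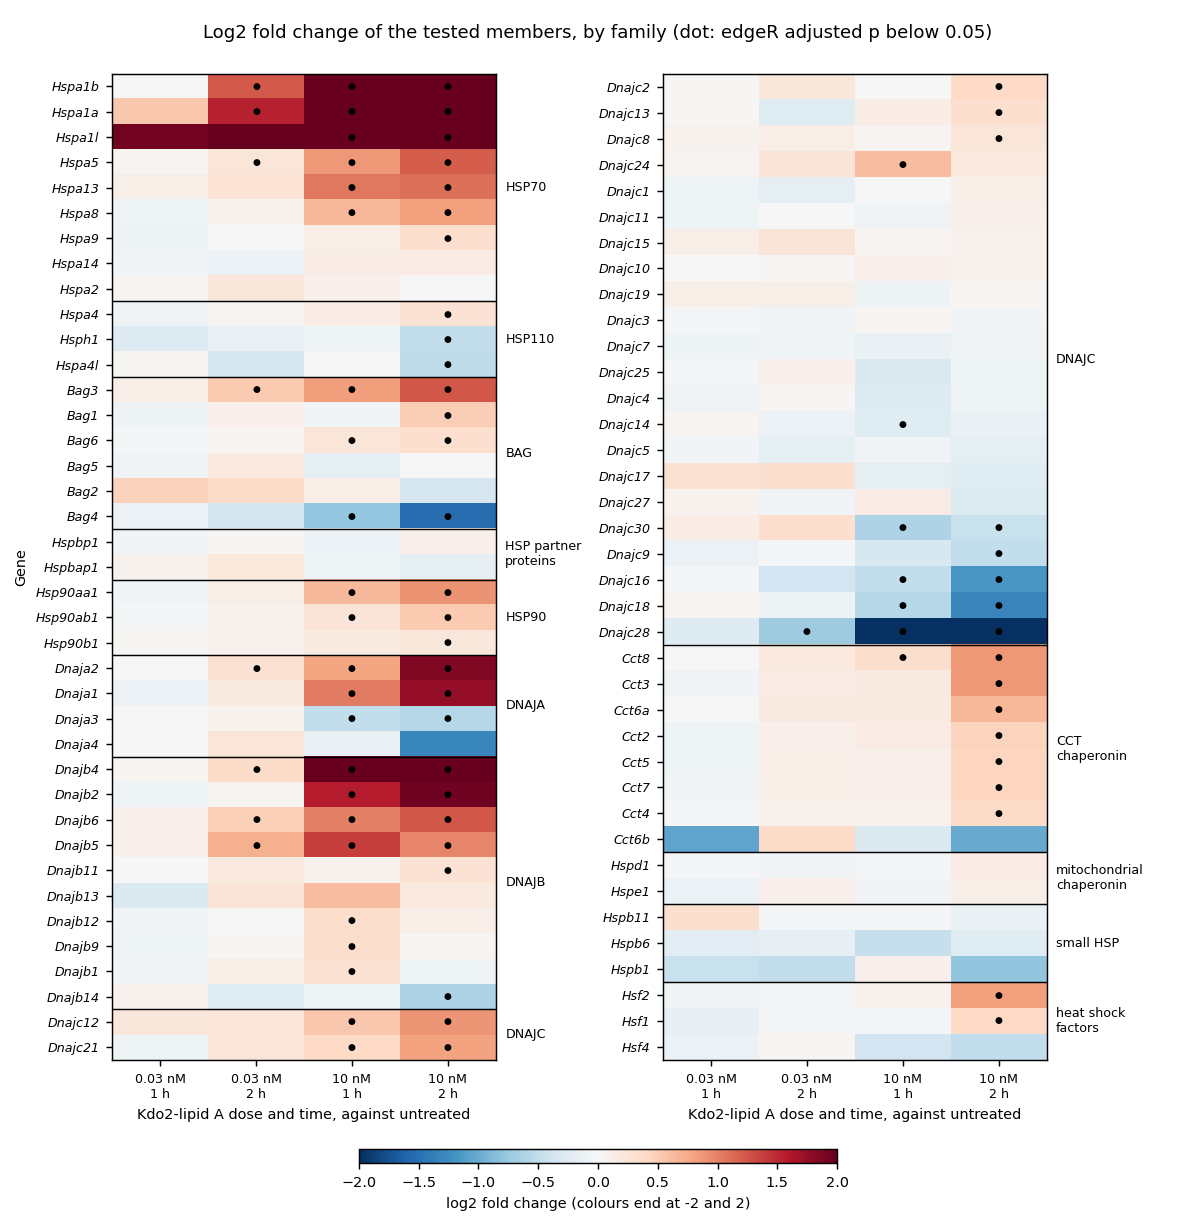
Log2 change against untreated cells (colour, ending at −2 and 2) of the 77 tested members, grouped by family, after 0.03 nM or 10 nM Kdo2-lipid A for 1 h or 2 h, on the TMM scale. A dot marks an adjusted p below 0.05: none at 0.03 nM for 1 h, 9 at 0.03 nM for 2 h, 30 at 10 nM for 1 h and 45 at 10 nM for 2 h, of which library totals turn 6 of the higher calls at 1 h and 15 at 2 h to below 0.

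Among the HSP70 genes, the stress-inducible pair Hspa1b and Hspa1a gave the largest rises of all tested members at 10 nM. On mm9, Hspa1b lies on chromosome 17, 35093374 to 35096183, minus strand, and Hspa1a on chromosome 17, 35106304 to 35109101, minus strand. Hspa1b was at 1.91 and 2.51 CPM in untreated cells, 1.66 and 2.71 after 1 h and 4.13 and 6.12 after 2 h of 0.03 nM, and 55.0 and 60.7 after 1 h and 54.1 and 57.7 after 2 h of 10 nM. All 4 libraries of 10 nM stood far above all 6 others, and both libraries of 0.03 nM for 2 h stood above the untreated ones. The change against untreated cells was 4.71 ± 0.22 log2 (26.2-fold, adjusted p = 6.19e-08 by edgeR) after 1 h of 10 nM and 4.66 ± 0.22 (25.3-fold, adjusted p = 3.11e-08) after 2 h; the error throughout is the standard error of the fit.

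Hspa1a was at 0.977 and 1.04 CPM in untreated cells, 0.747 and 2.18 after 1 h and 2.41 and 3.42 after 2 h of 0.03 nM, and 26.2 and 25.3 after 1 h and 19.1 and 20.5 after 2 h of 10 nM. It too was separated at 10 nM from every other library. Its change was 4.67 ± 0.35 log2 (25.5-fold, adjusted p = 4.35e-06) after 1 h and 4.29 ± 0.35 (19.6-fold, adjusted p = 3.74e-06) after 2 h of 10 nM. The transcripts of the pair are near-identical over much of their length, with 58.8% of the 50-base windows of Hspa1a also in Hspa1b, so the split of counts between them is uncertain. Their summed level was 2.88 and 3.54 CPM in untreated cells, 81.2 and 86.0 after 1 h and 73.2 and 78.2 after 2 h of 10 nM. The summed counts were 26.0-fold higher after 1 h and 23.6-fold higher after 2 h than in untreated cells. Between 1 h and 2 h of 10 nM the sum did not pass the test (−0.14 log2, interval −0.68 to 0.39, adjusted p = 0.663).

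**Figure D2:**
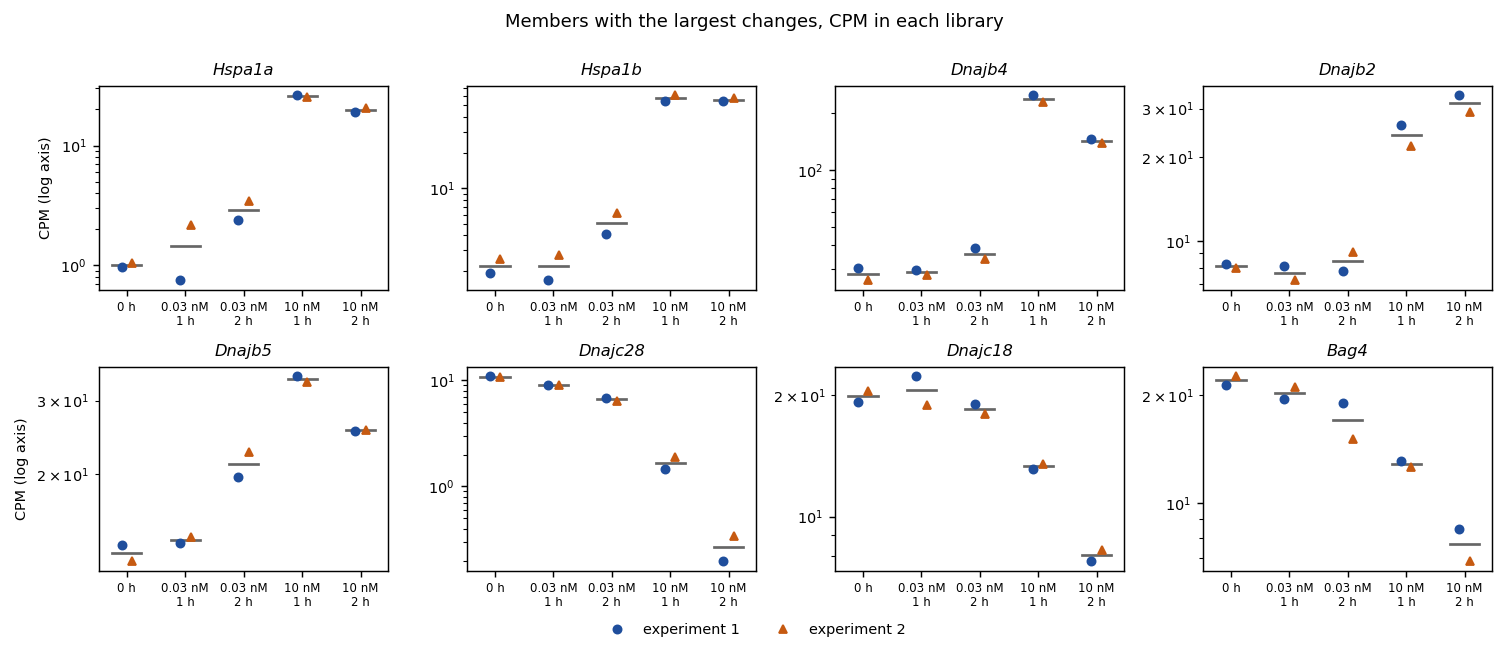
TMM-scaled CPM (log axis) of the 8 members shown for large changes, in the 5 groups of dose and time, with circles for experiment 1, triangles for experiment 2 and a line at the mean. Hspa1a, Hspa1b, Dnajb4 and Dnajb2 lie higher in every library of 10 nM than in any other, and Dnajc28, Dnajc18 and Bag4 lie lower after 2 h of 10 nM than in any untreated library.

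Hspa1l, the third gene of this cluster and best known from testis, was called higher at 10 nM but on few reads: 4 counts over both untreated libraries, 37 after 1 h and 30 after 2 h of 10 nM. The count ratios scaled for depth were 10.7 (95% interval 3.83 to 41.2, counting error only) and 10.5 (3.69 to 41.0). Leaving out the first untreated library raised its adjusted p to 0.0767 at 1 h and 0.0501 at 2 h. At 0.03 nM it had 16 counts after 1 h and 23 after 2 h and was not called. The count ratios there were 4.01 (1.29 to 16.5) and 6.13 (2.09 to 24.4), with counting error only. In sequence, 9.57% of the 50-base windows of Hspa1l also occur in Hspa1a.

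Of the abundant HSP70 genes, the endoplasmic reticulum form moved most. Hspa5 was at 749 and 774 CPM in untreated cells, 768 and 812 after 1 h and 889 and 921 after 2 h of 0.03 nM, and 1377 and 1409 after 1 h and 1747 and 1779 after 2 h of 10 nM. The 10 nM libraries were all above the others, and those of 2 h above those of 1 h. Hspa5 rose by 0.87 ± 0.07 log2 after 1 h (adjusted p = 9.52e-07) and 1.21 ± 0.07 after 2 h (adjusted p = 2.47e-08). Hspa8 was at 1456 and 1379 CPM in untreated cells, 1358 and 1302 after 1 h and 1425 and 1557 after 2 h of 0.03 nM, and 2268 and 2234 after 1 h and 2473 and 2548 after 2 h of 10 nM. It rose 1.59-fold (0.67 ± 0.07 log2, adjusted p = 1.66e-05) and 1.77-fold (0.82 ± 0.07, adjusted p = 1.25e-06), and no 10 nM library overlapped the rest.

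Hspa8 made up 61.3% of the summed RPKM of the family over all libraries. Hspa13, a microsomal HSP70, rose from 32.3 and 33.8 CPM to 70.2 and 67.3 after 1 h and 74.1 and 67.2 after 2 h of 10 nM, 1.06 ± 0.12 and 1.10 ± 0.12 on the log2 scale. Hspa9, the mitochondrial HSP70, was called against untreated cells after 2 h but not 1 h (0.33 ± 0.07, adjusted p = 0.00103), a call whose sign turned with library totals (−0.22). Hspa14, a ribosome-associated HSP70 (0.16 ± 0.09 at 2 h), and the testis-type Hspa2 (0.00 ± 0.14) did not pass the test against untreated cells. In all, 6 of the 9 tested HSP70 genes rose after 1 h of 10 nM and 7 after 2 h, and none fell on the TMM scale. The shares of all genes were 18.5% higher and 18.3% lower at 1 h, and 28.6% and 30.1% at 2 h. The family summed to 2438 ± 40.4 CPM in untreated cells, 4042 ± 2.39 after 1 h and 4693 ± 72.9 after 2 h of 10 nM (mean ± SD, n = 2). Most of this sum and of its rise lay in Hspa8 and Hspa5. Their means were 1418 and 762 CPM in untreated cells and 2510 and 1763 CPM after 2 h of 10 nM.

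**Figure D3:**
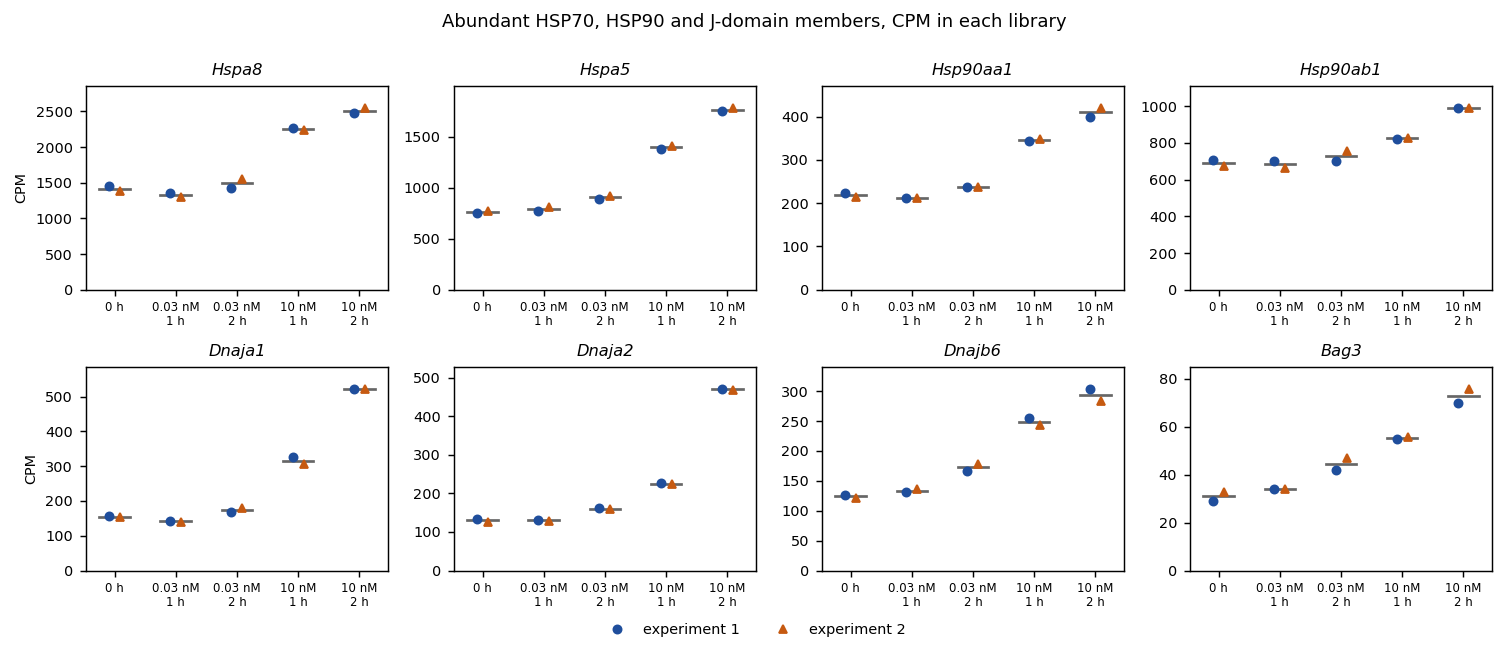
TMM-scaled CPM (axes from 0) of Hspa8, Hspa5, Hsp90aa1, Hsp90ab1, Dnaja1, Dnaja2, Dnajb6 and Bag3 in the 5 groups, with circles for experiment 1, triangles for experiment 2 and a line at the mean. All 8 were called higher at 10 nM than untreated at both times; for Hsp90ab1 library totals turn the difference to −0.11 at 1 h and −0.04 at 2 h (log2).

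The nucleotide exchange factors of HSP70 split by gene. Bag3, which links HSP70 to selective autophagy of damaged proteins, was at 29.1 and 32.9 CPM in untreated cells, 34.2 and 33.9 after 1 h and 42.0 and 47.2 after 2 h of 0.03 nM, and 54.7 and 55.9 after 1 h and 70.1 and 75.8 after 2 h of 10 nM. Every 10 nM library was above every untreated one, and the 2 h libraries of each dose were above its 1 h libraries. Bag3 rose by 0.52 ± 0.09 log2 after 2 h of 0.03 nM (adjusted p = 0.00258), and at 10 nM by 0.83 ± 0.09 after 1 h (adjusted p = 1.48e-05) and 1.23 ± 0.09 after 2 h (adjusted p = 2.27e-07). Bag4, a silencer of death receptor signalling, moved the other way. It was at 21.4 and 22.6 CPM in untreated cells, 19.5 and 21.1 after 1 h and 19.1 and 15.1 after 2 h of 0.03 nM, and 13.1 and 12.6 after 1 h and 8.47 and 6.87 after 2 h of 10 nM, and both 2 h libraries of 10 nM were below all others. The log2 change of Bag4 was −0.78 ± 0.13 after 1 h and −1.52 ± 0.14 after 2 h of 10 nM (adjusted p = 0.000507 and 1.43e-06).

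Bag1, the most abundant BAG gene per length, was at 104 and 105 CPM in untreated cells, 97.8 and 96.2 after 1 h and 95.6 and 128 after 2 h of 0.03 nM, and 99.1 and 103 after 1 h and 149 and 146 after 2 h of 10 nM. Its 0.50 ± 0.11 rise after 2 h of 10 nM (adjusted p = 0.00202) turned to −0.06 with library totals. Bag6, which guards tail-anchored membrane proteins on their way to the endoplasmic reticulum, was called at 1 h (0.25 ± 0.07) and 2 h (0.34 ± 0.07), and both turned with library totals (−0.12 and −0.21). The 1 h call of Bag6 was lost (adjusted p 0.0773 to 0.118) without any 1 of the 4 libraries compared. Bag2 and Bag5 were not called in any comparison.

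The HSP110 genes, whose proteins also release nucleotide from HSP70, gave no call after 1 h of 10 nM, when 36.9% of all genes were called. After 2 h, when 28.6% of all genes were higher and 30.1% lower, the HSP110 genes gave 1 higher and 2 lower calls. Hspa4, the most abundant of them, was at 199 and 189 CPM in untreated cells, 187 and 181 after 1 h and 203 and 201 after 2 h of 0.03 nM, and 214 and 215 after 1 h and 237 and 239 after 2 h of 10 nM. Its values changed little and the 2 h call (0.30 ± 0.07 log2, adjusted p = 0.00245) turned to −0.26 with library totals. Hsph1, the heat-inducible member, which also holds the full heat shock element, was lower after 2 h of 10 nM (19.0 and 16.6 CPM against 26.4 and 23.8 in untreated cells, −0.50 ± 0.11 log2, adjusted p = 0.00204). Hspa4l was lower by a like amount (13.0 and 16.1 against 20.9 and 20.3 CPM, −0.50 ± 0.11, adjusted p = 0.002). Hspbp1, which binds HSP70 and promotes nucleotide release, was at 24.2 and 23.4 CPM in untreated cells, 23.2 and 22.8 after 1 h and 21.4 and 26.9 after 2 h of 0.03 nM, and 21.9 and 22.1 after 1 h and 26.3 and 24.7 after 2 h of 10 nM. Neither it nor Hspbap1 was called in any comparison.

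Both cytosolic HSP90 genes rose on the TMM scale, and the rise of the inducible form alone held on library totals. Hsp90aa1, the inducible form, was at 224 and 215 CPM in untreated cells, 344 and 348 after 1 h and 399 and 420.0 after 2 h of 10 nM, with no overlap between these groups. It rose by 0.66 ± 0.07 and 0.90 ± 0.07 log2 (adjusted p = 9.47e-06 and 2.84e-07). Hsp90ab1 was at 709 and 672 CPM in untreated cells, 699 and 665 after 1 h and 701 and 757 after 2 h of 0.03 nM, and 823 and 829 after 1 h and 989.6 and 988 after 2 h of 10 nM. Its rises were 0.26 ± 0.07 after 1 h and 0.52 ± 0.07 after 2 h (adjusted p = 0.0132 and 5.33e-05), and with library totals they turned to −0.11 and −0.04. Without the second untreated library, or without either library of 10 nM for 1 h, the 1 h call was lost (adjusted p = 0.12, 0.073 and 0.0865). Hsp90b1, whose promoter holds 2 endoplasmic reticulum stress elements, changed by 0.19 ± 0.07 log2 after 1 h (adjusted p = 0.0599) and 0.23 ± 0.07 after 2 h (adjusted p = 0.0167). The 2 h call turned to −0.33 with library totals and was lost without either library of 10 nM for 2 h (adjusted p = 0.0926 and 0.0525) or without the second untreated library (0.144).

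Among the DNAJA genes, which encode J-domain proteins built like bacterial DnaJ, the cytosolic Dnaja1 and Dnaja2 rose and the mitochondrial Dnaja3 fell. Dnaja2, per length the most abundant, was at 135 and 125 CPM in untreated cells, 132 and 128 after 1 h and 163 and 158 after 2 h of 0.03 nM, and 227 and 223 after 1 h and 471 and 469 after 2 h of 10 nM. The 2 h libraries of 10 nM stood above those of 1 h, and those above the rest. Dnaja2 rose by 0.79 ± 0.07 log2 after 1 h and 1.86 ± 0.07 after 2 h of 10 nM (adjusted p = 2.78e-06 and 9.77e-10). Dnaja1 was at 156 and 153 CPM in untreated cells, 143 and 141 after 1 h and 169 and 179.5 after 2 h of 0.03 nM, and 326 and 306 after 1 h and 522 and 523 after 2 h of 10 nM, ordered in the same way. Its changes were 1.03 ± 0.07 and 1.76 ± 0.07 (adjusted p = 2.78e-07 and 1.46e-09). Dnaja1 overlaps Smu1 on the opposite strand over 26.0% of its exonic length, and whether the counting used strand is not stated in the sources used here. Dnaja3 was lower by 1.41-fold after 1 h and 1.49-fold after 2 h (−0.50 ± 0.08 and −0.58 ± 0.08 log2). The family summed to 311 ± 8.68 CPM in untreated cells and 1010.5 ± 1.57 after 2 h of 10 nM. Dnaja4 lay at 0.168 ± 0.0127 RPKM in untreated cells and was called only between doses at 2 h (−1.55 ± 0.58 log2, adjusted p = 0.0415), a call lost when single libraries were left out (adjusted p up to 0.162).

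The DNAJB family gave the largest rises among the J-domain genes. Dnajb4, a close relative of the classical HSP40 gene Dnajb1, was at 30.1 and 25.9 CPM in untreated cells, 29.5 and 27.8 after 1 h and 38.5 and 33.5 after 2 h of 0.03 nM, and 248 and 229.6 after 1 h and 145 and 139 after 2 h of 10 nM. It peaked at 1 h of 10 nM, where both libraries were above those of 2 h, and all 4 were above the other 6. The rise was 3.09 ± 0.10 log2 (8.53-fold, adjusted p = 5.12e-10) after 1 h and 2.35 ± 0.10 (5.09-fold, adjusted p = 2.08e-09) after 2 h. Dnajb2, which carries ubiquitin-binding motifs beside its J domain, was at 8.27 and 7.98 CPM in untreated cells, 8.10 and 7.19 after 1 h and 7.80 and 9.14 after 2 h of 0.03 nM, and 26.3 and 22.0 after 1 h and 33.5 and 29.2 after 2 h of 10 nM. Its 10 nM libraries did not overlap the rest, and it rose by 1.57 ± 0.13 and 1.95 ± 0.13 log2 (adjusted p = 1.44e-06 and 9.96e-08).

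Dnajb5 was at 13.5 and 12.4 CPM in untreated cells, 13.7 and 14.2 after 1 h and 19.7 and 22.6 after 2 h of 0.03 nM, and 34.3 and 33.3 after 1 h and 25.3 and 25.6 after 2 h of 10 nM. Like Dnajb4 it was highest at 1 h of 10 nM. After 1 h its change was 1.38 ± 0.10 log2 and after 2 h 0.97 ± 0.10 (adjusted p = 3.9e-07 and 4.02e-06). Dnajb6, a suppressor of protein aggregation and 1 of the 4 members with the full heat shock element, was at 127 and 121 CPM in untreated cells, 131 and 136 after 1 h and 167 and 178 after 2 h of 0.03 nM, and 255 and 243 after 1 h and 304 and 284 after 2 h of 10 nM. It was highest after 2 h of 10 nM, with 1.01 ± 0.08 log2 at 1 h and 1.25 ± 0.08 at 2 h (adjusted p = 6.39e-07 and 4.47e-08).

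Dnajb1, the usual partner of inducible HSP70 in the heat shock response, moved little. It was at 30.8 and 29.1 CPM in untreated cells, 29.1 and 28.4 after 1 h and 31.8 and 34.0 after 2 h of 0.03 nM, and 36.4 and 36.6 after 1 h and 29.6 and 26.9 after 2 h of 10 nM. Against untreated cells it was called higher after 1 h of 10 nM (0.28 ± 0.08 log2, adjusted p = 0.02), with −0.08 on library totals, and changed by −0.09 ± 0.09 after 2 h (adjusted p = 0.407). The 1 h call was lost without any 1 of 4 libraries (adjusted p 0.0573 to 0.142). Of the J-domain proteins of the endoplasmic reticulum, Dnajb9 was called at 1 h (0.36 ± 0.10, −0.01 on library totals, lost with an adjusted p of 0.0764 to 0.189 without the first or second untreated library or the first library of 10 nM for 1 h). Dnajb12 was called at 1 h as well (0.35 ± 0.08, −0.02 on library totals), and Dnajb11 at 2 h (0.28 ± 0.07, −0.27 on library totals). Dnajb14 was lower at 2 h (−0.61 ± 0.16, adjusted p = 0.00808), a call lost without the first library of 10 nM for 2 h (adjusted p = 0.0653). In all, 7 of the 10 tested DNAJB genes were higher after 1 h of 10 nM, and 5 were higher and 1 lower after 2 h. Of all tested genes, 18.5% were higher and 18.3% lower at 1 h, and 28.6% and 30.1% at 2 h. On library totals Dnajb2, Dnajb4, Dnajb5 and Dnajb6 kept their higher calls at both times. The family summed to 429 ± 9.85 CPM in untreated cells, 834 ± 33.4 after 1 h and 763 ± 23.8 after 2 h of 10 nM.

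The DNAJC genes, J-domain proteins with many unlike roles, were called in both directions on the TMM scale. After 1 h of 10 nM, 3 of 24 tested were higher and 5 lower, beside 18.5% and 18.3% of all genes. After 2 h, 5 were higher and 5 lower, beside 28.6% and 30.1% of all genes. The shares of this family lay near or below those of all genes. Dnajc28, whose function is little studied, gave the largest fall of any tested member. It was at 10.9 and 10.8 CPM in untreated cells, 9.06 and 9.10 after 1 h and 6.84 and 6.46 after 2 h of 0.03 nM, and 1.45 and 1.90 after 1 h and 0.197 and 0.342 after 2 h of 10 nM. The 10 nM libraries were below all others, and the 2 h ones far below the 1 h ones. Over both libraries it had 907 counts in untreated cells, 122 after 1 h and 16 after 2 h of 10 nM. The log2 change was −2.69 ± 0.18 after 1 h (6.46-fold lower, adjusted p = 1.85e-07) and −5.32 ± 0.24 after 2 h (40.0-fold lower, adjusted p = 3.43e-09).

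Dnajc18, a J-domain gene of the endoplasmic reticulum membrane, was at 19.3 and 20.5 CPM in untreated cells, 22.3 and 18.9 after 1 h and 19.1 and 18.0 after 2 h of 0.03 nM, and 13.2 and 13.5 after 1 h and 7.75 and 8.28 after 2 h of 10 nM. Its 2 h libraries of 10 nM were the lowest, at −1.31 ± 0.11 log2 (adjusted p = 9.27e-07), after −0.58 ± 0.11 at 1 h (adjusted p = 0.00107). Dnajc16 fell at both times (−0.49 ± 0.13 and −1.16 ± 0.13), and its 1 h call was lost without the second untreated library (adjusted p = 0.0538) or the second of 10 nM for 1 h (0.0802). The mitochondrial Dnajc30 fell at both times as well (−0.62 ± 0.14 and −0.44 ± 0.14). Its 2 h call was lost without the first untreated library or either library of 10 nM for 2 h (adjusted p 0.0541 to 0.103), and it shares 12.3% of its exonic length with Wbscr22 on the opposite strand. Dnajc14 was called lower at 1 h only (−0.24 ± 0.07), lost when single libraries were left out (adjusted p 0.0658 to 0.0897), and it overlaps Ormdl2 over 36.9% of its length. Dnajc9, a histone chaperone, was lower at 2 h (−0.49 ± 0.12, adjusted p = 0.00478), with an adjusted p of 0.0542 without the first library of 10 nM for 2 h.

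Of the DNAJC genes that rose, Dnajc12 had 6.60 and 6.61 CPM in untreated cells, 9.14 and 9.97 after 1 h and 11.9 and 12.4 after 2 h of 10 nM, with changes of 0.53 ± 0.13 and 0.88 ± 0.13 log2. Its 1 h call was lost without the second library of 10 nM for 1 h (adjusted p = 0.0665). Dnajc21, which acts in ribosome biogenesis, changed by 0.40 ± 0.11 and 0.80 ± 0.11, the 1 h call being lost without the second untreated library (adjusted p = 0.0941) or the second of 10 nM for 1 h (0.109). Dnajc24, needed to make diphthamide on elongation factor 2, was called at 1 h only (0.62 ± 0.17), and lost without the second untreated library (adjusted p = 0.0996) or the first of 10 nM for 1 h (0.123). Dnajc8, a splicing-associated gene and the most abundant DNAJC gene per length, was at 84.3 and 80.3 CPM in untreated cells, 88.5 and 84.6 after 1 h and 83.8 and 96.7 after 2 h of 0.03 nM, and 83.6 and 88.2 after 1 h and 99.5 and 95.2 after 2 h of 10 nM. Its 2 h call (0.24 ± 0.08) turned to −0.31 with library totals, as did those of the ribosome-associated Dnajc2 (0.40 ± 0.10 and −0.16) and the endosomal Dnajc13 (0.33 ± 0.12 and −0.22). The calls of Dnajc8 and Dnajc13 were also lost when single libraries were left out (adjusted p 0.0586 to 0.156 and 0.0524 to 0.2). Dnajc3, the endoplasmic reticulum gene with a stress element in its promoter, was not called in any comparison (−0.06 ± 0.10 log2 after 2 h of 10 nM, interval −0.28 to 0.16).

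The cytosolic chaperonin genes rose by small amounts on the TMM scale, most of them at 2 h only. At 1 h of 10 nM only Cct8 of 8 tested genes was called (0.35 ± 0.08 log2, adjusted p = 0.00389; −0.02 on library totals). At 2 h all but Cct6b were called higher, 7 of 8. The shares of all genes called higher were 18.5% at 1 h and 28.6% at 2 h. Cct2, per length the most abundant, was at 154 and 141 CPM in untreated cells, 146 and 133 after 1 h and 158 and 159 after 2 h of 0.03 nM, and 162 and 167 after 1 h and 205 and 197 after 2 h of 10 nM. Both 2 h libraries of 10 nM were above all others, and its 2 h change was 0.45 ± 0.08 (adjusted p = 0.000314). Cct3 rose from 91.2 and 81.8 to 157 and 158 CPM (0.87 ± 0.10 log2, adjusted p = 8.4e-06) and Cct8 from 123 and 127 to 230.1 and 225 (0.87 ± 0.08, adjusted p = 1.58e-06). These 2 were called on library totals too. Cct6a (0.66 ± 0.07) was not called on that scale, and Cct2, Cct4 (0.39 ± 0.08), Cct5 (0.44 ± 0.10) and Cct7 (0.43 ± 0.09) turned to −0.11, −0.17, −0.12 and −0.12. Tcp1, the remaining subunit of the ring, lies outside the symbol rule and rose by 0.78 ± 0.08 at 2 h (adjusted p = 5.45e-06). Cct8 overlaps Usp16 on the opposite strand over 7.90% of its exonic length.

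**Figure D4:**
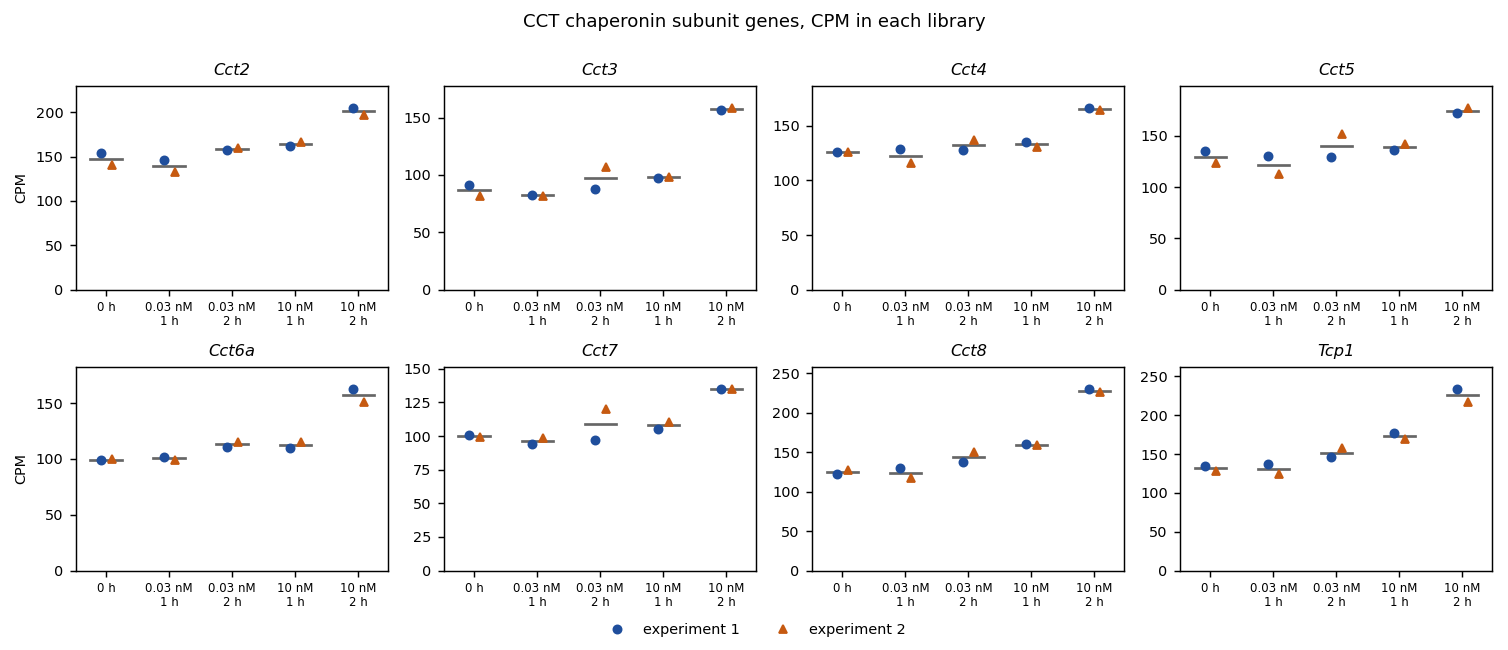
TMM-scaled CPM (axes from 0) of 7 CCT genes and Tcp1 in the 5 groups, with circles for experiment 1, triangles for experiment 2 and a line at the mean. Each is highest after 2 h of 10 nM on this scale; with library totals Cct2, Cct4, Cct5 and Cct7 lie −0.11, −0.17, −0.12 and −0.12 (log2) against untreated cells at that time.

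The mitochondrial chaperonin genes, which share a full heat shock element, did not pass the test against untreated cells. Hspe1 was at 47.4 and 40.8 CPM in untreated cells, 42.6 and 38.5 after 1 h and 43.2 and 51.4 after 2 h of 0.03 nM, and 44.3 and 40.3 after 1 h and 50.4 and 45.6 after 2 h of 10 nM, with overlapping groups, and its partner Hspd1 changed by 0.16 ± 0.07 log2 after 2 h of 10 nM (interval 0.00 to 0.32). Of the small heat shock proteins, Hspb1 (−0.79 ± 1.06, interval −3.13 to 1.54), Hspb6 (−0.24 ± 0.26) and Hspb11 were tested and none was called. Hspb11, better known as a subunit of intraflagellar transport, was at 3.31 and 2.63 CPM in untreated cells, 3.88 and 3.55 after 1 h and 2.76 and 3.09 after 2 h of 0.03 nM, and 3.06 and 2.72 after 1 h and 2.46 and 2.98 after 2 h of 10 nM. Its 10 nM libraries overlapped the untreated ones.

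Of the heat shock factor mRNAs, none was called after 1 h of 10 nM and 2 of the 3 tested were called higher after 2 h on the TMM scale. Beside this, 36.9% of all genes were called in either direction at 1 h. At 2 h it was 58.7%, with 28.6% called higher. Hsf1, the main heat shock factor, which is known to be controlled chiefly as a protein, was at 20.1 and 20.5 CPM in untreated cells, 18.6 and 17.5 after 1 h and 18.6 and 20.9 after 2 h of 0.03 nM, and 19.7 and 20.1 after 1 h and 26.6 and 26.8 after 2 h of 10 nM. Its libraries of 2 h at 10 nM were above all others (0.39 ± 0.09 log2, adjusted p = 0.00278), with −0.16 on library totals. Hsf2 was at 14.8 and 14.1 CPM in untreated cells, 14.6 and 13.2 after 1 h and 16.1 and 12.1 after 2 h of 0.03 nM, and 15.1 and 15.2 after 1 h and 24.5 and 26.3 after 2 h of 10 nM. Only the 2 h libraries of 10 nM stood apart, 1.76-fold above untreated cells (0.81 ± 0.13 log2, adjusted p = 0.000167), and on library totals the call was lost. Hsf4, a factor of the lens, was at 4.26 and 3.74 CPM in untreated cells, 3.42 and 3.93 after 1 h and 3.09 and 5.07 after 2 h of 0.03 nM, and 3.18 and 2.99 after 1 h and 3.12 and 2.56 after 2 h of 10 nM, was lower in the 10 nM libraries than in both untreated ones and was not called (adjusted p = 0.099 at 2 h). Hsf3 and Hsf5 had too few counts to be tested.

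Of the 8 members that rose after 2 h of 0.03 nM, 3 were HSP70 genes, 3 DNAJB genes, 1 a BAG gene and 1 a DNAJA gene. Hspa1a changed by 1.54 ± 0.38 log2 (adjusted p = 0.0356) and Hspa1b by 1.22 ± 0.24 (adjusted p = 0.00896), and the counts of both summed were 2.51-fold higher (adjusted p = 0.0277). Dnajb5 rose by 0.71 ± 0.10 (adjusted p = 0.000591) and Dnajb6 by 0.48 ± 0.07 (adjusted p = 0.00139). These 2 and Bag3 held their calls without each library in turn. Dnajb4 (0.36 ± 0.10, adjusted p = 0.0363), Dnaja2 (0.31 ± 0.07) and Hspa5 (0.25 ± 0.07) rose by less. Dnajc28 fell (−0.71 ± 0.15, adjusted p = 0.0111).

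The other calls at this dose were lost without 1 library or another. For Hspa1a the adjusted p reached 0.234 at most, for Hspa1b 0.0966 without the first untreated library, for Dnajb4 0.325, for Hspa5 0.27, for Dnaja2 0.194 without the second untreated library, and for Dnajc28 0.0895 without the first. The number of calls at 2 h of 0.03 nM was 28 without the first library of that group, 4 without the second untreated one and 5 without the first untreated one, against 9 with all. The gene-length difference between the 2 libraries of 0.03 nM for 2 h stands beside these values, and its part was not tested.

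Set against 0.03 nM at the same time, 10 nM gave higher levels of 24 members at 1 h (31.2% of those tested, against 18.0% of all genes) and lower levels of 7 (9.09%, against 17.3%; 35.3% of all genes in either direction). At 2 h it gave 33 higher (42.9%, against 25.6%) and 11 lower (14.3%, against 27.2%; 52.8% in either direction). On library totals these splits were 13 higher and 35 lower, and 13 higher and 43 lower, against 9.33% and 51.0%, and 13.4% and 59.1%, of all genes. The dose difference of Hspa1b was 4.72 ± 0.23 log2 at 1 h and 3.44 ± 0.20 at 2 h (adjusted p = 7.98e-08 and 2.52e-07). For Dnajb4 it was 3.06 ± 0.10 and 1.98 ± 0.10, for Dnajb2 1.66 ± 0.13 and 1.88 ± 0.13, and for Dnaja1 1.16 ± 0.07 and 1.58 ± 0.07. For Dnajc28, lower at 10 nM, it was −2.43 ± 0.18 and −4.61 ± 0.25. These comparisons and those with untreated cells share the 10 nM libraries.

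Between 1 h and 2 h of 10 nM, 22 of the tested members went up (28.6%, against 21.3% of all genes) and 13 went down (16.9%, against 21.5%; 42.8% in either direction), and on library totals 7 went up and 18 down (13.6% and 33.1% of all genes). The members divided by family: 7 of 8 CCT genes went up, while of the 10 DNAJB genes 6 went down and 3 up, and 2 of the 3 HSP110 genes went down. Dnaja2 gave the largest called rise (1.06 ± 0.07 log2, adjusted p = 4.15e-07), followed by Hsf2 (0.75 ± 0.13, adjusted p = 0.000626) and Dnaja1 (0.72 ± 0.07). Dnajb4 (−0.75 ± 0.09), Dnajb5 (−0.41 ± 0.10) and Dnajb1 (−0.37 ± 0.09) went down from 1 h to 2 h, as did the falling Dnajc28 (−2.63 ± 0.29, adjusted p = 1.93e-05). Hspa1b changed by −0.05 ± 0.18 (interval −0.44 to 0.34). The number of calls was 35 with all libraries, 20 without the first library of 10 nM for 1 h, and 23 without the second of these or without the first of 10 nM for 2 h. The calls of Cct2, Cct4, Cct5 and Cct7 were among those lost (adjusted p 0.0521 to 0.114 without single libraries of 10 nM), as were those of Dnajb2, Dnajb6, Dnajb9, Dnajb11, Dnajb12, Dnajb14 and Hsph1 (up to 0.235, that of Dnajb9 without the first library of 10 nM for 1 h).

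At 0.03 nM, 6 members were called between 1 h and 2 h, each higher (7.79% of those tested, against 3.51% of all genes called higher and 5.11% in either direction). They were Hspa1b (1.24 ± 0.24 log2, adjusted p = 0.0149), Dnajb5 (0.60 ± 0.10, adjusted p = 0.00379), Bag3 (0.39 ± 0.09), Dnajb6 (0.37 ± 0.07), Dnaja2 (0.31 ± 0.07) and Dnaja1 (0.30 ± 0.07). The count moved between 1 without the first library of 0.03 nM for 1 h and 24 without the first of 0.03 nM for 2 h, and was 3 without the second library of 0.03 nM for 1 h or without either of 10 nM for 1 h. With only the 4 libraries compared in the fit, it was 0. Hspa1b lost its call without the first library of 0.03 nM for 1 h (adjusted p = 0.0969) or the second of 0.03 nM for 2 h (0.0837), and Hspa1a and Hspa1b summed gave an adjusted p of 0.0743. Bag3, Dnaja1, Dnaja2 and Dnajb6 also lost theirs in such fits (adjusted p up to 0.167). The 1 h and 2 h comparisons at this dose again hold the 2 libraries that differ along gene length.

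**Figure D5:**
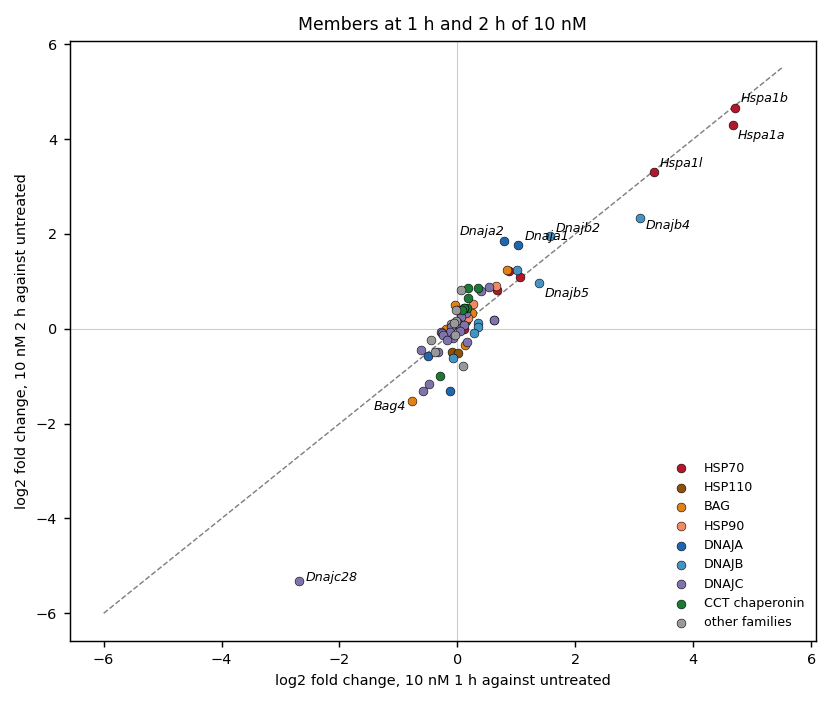
Log2 change against untreated cells after 1 h (horizontal) and 2 h (vertical) of 10 nM for the 77 tested members on the TMM scale, coloured by family, with a dashed line at equal change. Dnaja1 and Dnaja2 lie above the line, Dnajb4 and Dnajb5 below it, and Dnajc28 at the lower left; both axes share the untreated libraries.

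The difference between doses itself changed from 1 h to 2 h for 12 members in an interaction test: it went up for 5 (6.49%, against 10.4% of all genes) and down for 7 (9.09%, against 11.6%; 22.0% in either direction). It grew for Dnaja2 (0.75 ± 0.10 log2, adjusted p = 0.000242), Hsf2, Cct3, Dnaja1 and Cct6a. Without single libraries the calls of Hsf2 (adjusted p up to 0.0559), Cct3 (0.115), Cct6a (0.185) and Dnaja1 (0.058, without the second library of 10 nM for 1 h) were lost, and with the experiment as a block that of Cct6a was lost too (adjusted p = 0.0503). It shrank for Dnajb4 (−1.07 ± 0.14, adjusted p = 0.000178), Dnajb5 (−1.01 ± 0.14, adjusted p = 0.0003; on library totals its dose difference turned to −0.22 at 2 h) and Hspa1b (−1.29 ± 0.30, adjusted p = 0.0115), while that of Dnajc28 became more negative (−2.18 ± 0.34, adjusted p = 0.000705). On library totals the split was 3 up and 12 down (7.94% and 17.8% of all genes). The count was 7 without the first library of 10 nM for 1 h and 22 without the second of 0.03 nM for 2 h. The shares of members called were below those of all genes in both directions.

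Co-chaperones and folding enzymes outside the symbol rule were read from a list of 44 genes, 43 of them tested. After 10 nM, 11 were higher and 3 lower at 1 h, and 15 higher and 5 lower at 2 h, against 18.5% and 18.3%, then 28.6% and 30.1%, of all genes. On library totals the splits were 2 higher and 29 lower, and 3 higher and 32 lower, beside the shares of all genes on that scale given above. Stip1 (HOP), which hands clients from HSP70 to HSP90, was at 66.7 and 61.2 CPM in untreated cells, 60.3 and 61.3 after 1 h and 74.8 and 83.0 after 2 h of 0.03 nM, and 141 and 142 after 1 h and 227 and 233 after 2 h of 10 nM. It rose by 1.14 ± 0.08 and 1.85 ± 0.08 log2 (adjusted p = 3.07e-07 and 2.46e-09), and its 10 nM libraries did not overlap the rest.

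Ptges3 (p23), a co-chaperone of HSP90, rose by 0.60 ± 0.07 and 1.00 ± 0.07. Stip1 and Ptges3 were called higher on library totals at both times, and Tcp1 at 2 h. Vbp1, a prefoldin subunit that passes clients to CCT, changed by 0.40 ± 0.08 and 0.69 ± 0.08, and Sugt1, an HSP90 co-chaperone, by 0.24 ± 0.08 (−0.13 on library totals) and 0.58 ± 0.08. The 1 h call of Sugt1 was lost without any 1 of the 4 libraries compared (adjusted p 0.0905 to 0.159). Grpel2, a nucleotide exchange factor of mitochondrial HSP70, fell (−0.85 ± 0.11 and −0.94 ± 0.12 log2, adjusted p = 9.84e-05 and 2.38e-05). At 0.03 nM none of the 43 was called at 1 h and 1, Stip1, at 2 h (0.30 ± 0.08, adjusted p = 0.0302), with an adjusted p of up to 0.287, the highest without the second untreated library.

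A further 6 members were called in other comparisons but not against untreated cells. Between doses at 2 h, Dnaja4 and Dnajc17 (−0.56 ± 0.19) were lower at 10 nM, and Hspd1 (0.22 ± 0.07), Hspa14 (0.27 ± 0.09) and Dnajc1 (0.30 ± 0.10) were higher on the TMM scale, with −0.26, −0.22 and −0.19 on library totals. Dnajc27 went down from 1 h to 2 h of 10 nM (−0.45 ± 0.14). Each of these 6 calls was lost when 1 library or another was left out (adjusted p up to 0.281, that of Dnajc1 without the second library of 0.03 nM for 2 h).

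Over all comparisons, 21 of the 77 tested members were never called: Bag2, Bag5, Cct6b, Dnajb13, Dnajc3, Dnajc4, Dnajc5, Dnajc7, Dnajc10, Dnajc11, Dnajc15, Dnajc19, Dnajc25, Hsf4, Hspa2, Hspb1, Hspb6, Hspb11, Hspbap1, Hspbp1 and Hspe1. The 18 untested members had at most 14 counts in any library (Hsf2bp), and Cct8l1, Dnajb8, Dnajc5g, Hspb2 and Hspb3 had 0 in all 10. The other untested members were Dnajb3, Dnajb7, Dnajc5b, Dnajc6, Dnajc22, Hsf3, Hsf5, Hspa12a, Hspa12b, Hspb7, Hspb8 and Hspb9.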

How the data were processed

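Polyadenylated RNA of 10 cultures was sequenced, and the authors deposited a table of counts per gene and a table of log2 values. Per the submitters' processing notes, the build was mm9 and the tools named are DESeq2, Subread, featureCounts 1.4.5-p1, TopHat2 2.0.11 and bcl2fastq 2.15.0.4. Whether counting used strand is not stated in the sources used here. The authors' log2 values are regularised logarithms, by the name of the deposited table, and served only for an alternative fit. Libraries were assigned to groups by the dose, time and experiment in their labels.

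The deposited counts were scaled with TMM factors and tested with edgeR 4.0.16 (R 4.3.3): genes kept by filterByExpr (12918), 1 mean per group over all 10 libraries (5 residual degrees of freedom), robust quasi-likelihood F-tests and Benjamini-Hochberg adjustment over all genes tested, threshold 0.05. The standard error is the log2 change divided by the square root of F. CPM used the TMM-scaled totals, and RPKM also the deposited exon length. Each library held at least 33179599 counts, so counting error is small except for the low genes named as such, and intervals on counts cover counting error only. The test was also run on simulated counts of independent libraries. These held no effect of the experiment and no difference along gene length, so that run does not cover either.

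The members and gene lists were chosen with earlier results of these data known. Values in every library are given for the heat shock factors, for the called members with the largest changes (6 per comparison with untreated cells or between doses, 3 per time comparison and for the interaction, with a mean log2 CPM of at least 1), for the member with the highest RPKM in each family, and for a few further genes (Hspa5, Bag4, Dnajb1 and Dnajc18) picked after their values were seen. Alternatives were DESeq2's size factors or library totals as the scale, no filter, DESeq2 1.42.0, limma 3.58.1 on the authors' log2 values, the experiment as a block, only the groups compared, a 1.5-fold minimum, and each library left out. The labels give the 5 groups the experiment numbers 1 and 2. Deviations from the group means correlated between same-numbered libraries at 0.0397 to 0.236 over all tested genes (median 0.177, 7 of 10 pairs of groups above 0.1). Over the tested members alone the correlations were −0.101 to 0.601 (median 0.335, 8 of 10 pairs above 0.1). No 2 libraries were near-copies. With separate cultures of unnamed animals, p-values measure the spread between these cultures. Protein sequences were not used here.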

Additional observations from a re-analysis of the deposited data

Results flagged for a closer look

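For 12 members the difference between doses (10 nM minus 0.03 nM, log2) was not the same at 2 h as at 1 h, by edgeR's interaction test with adjustment over all genes. These were 15.6% of the tested members, below the 22.0% of all genes called in either direction. In the J-domain gene Dnaja2 it went from 0.79 to 1.55, a difference of 0.75 ± 0.10 (adjusted p = 0.000242), and in Dnaja1 from 1.16 to 1.58 (0.43 ± 0.10, adjusted p = 0.0089). Hsf2, a heat shock factor, had 0.12 at 1 h and 0.85 at 2 h (0.73 ± 0.18, adjusted p = 0.0135). The chaperonin subunits Cct3 and Cct6a went from 0.25 to 0.70 (0.44 ± 0.13, adjusted p = 0.0342) and from 0.16 to 0.48 (0.31 ± 0.10, adjusted p = 0.0479). Of these, Dnaja2 held its call without each library in turn, while Dnaja1 lost it without the second library of 10 nM for 1 h (adjusted p = 0.058), Hsf2 without any of 3 libraries (up to 0.0559), Cct3 without any of 6 (up to 0.115) and Cct6a without any of 8 (up to 0.185). With the experiment as a block the call of Cct6a was lost as well (adjusted p = 0.0503).

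The dose difference was smaller at 2 h in Dnajb4 (3.06, then 1.98, a change of −1.07 ± 0.14, adjusted p = 0.000178), Dnajb5 (1.28, then 0.27, −1.01 ± 0.14, adjusted p = 0.0003) and Hspa1b (4.72, then 3.44, −1.29 ± 0.30, adjusted p = 0.0115). On library totals the 2 h difference of Dnajb5 was −0.22, a change of sign. On the TMM scale the dose difference crossed 0 in Dnajb1 (0.34, then −0.22, −0.56 ± 0.12, adjusted p = 0.0054) and Hsph1 (0.17, then −0.36, −0.53 ± 0.15, adjusted p = 0.0291). On library totals that of Dnajb1 was −0.01 at 1 h and −0.71 at 2 h, so that it did not cross 0, and its 2 h call on the TMM scale was lost without any of 8 libraries (adjusted p up to 0.274). In genes that were lower at 10 nM it grew more negative: Dnajc28 (−2.43, then −4.61, −2.18 ± 0.34, adjusted p = 0.000705) and Dnajc18 (−0.63, then −1.21, −0.58 ± 0.15, adjusted p = 0.0183). Dnajc18 and Hsph1 lost their calls without any of 4 libraries each (adjusted p up to 0.08 and 0.122), and the other 5 held theirs. Beside these values stand the 2 libraries of 0.03 nM for 2 h, which differ along gene length; their part was not tested.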

How the results depend on the processing

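Among the 212 calls of members (each a gene in a comparison), 87 held their direction and call in every alternative run, and 103 in all but the 1.5-fold minimum. DESeq2's size factors kept 211, the DESeq2 test 209, limma 210, no filter 203, only the groups compared 191 and single libraries left out 169 to 207. With the replicate block (experiment as a term) 211 kept their call, with 45 members called after 2 h of 10 nM without it and 46 with it. The one lost was the interaction of Cct6a. Counts of called members with all libraries were 0 and 9 at 0.03 nM, 30 and 45 at 10 nM, 31 and 44 between doses (1 h and 2 h each), 6 and 35 between times (0.03 nM and 10 nM) and 12 for the interaction. The 1.5-fold minimum left 4 at 0.03 nM for 2 h, 18 and 25 at 10 nM, 17 and 23 between doses, 2 and 9 between times and 6. Library totals gave 56 after 1 h of 10 nM and 48 between doses at 1 h, and fitting only the groups compared gave 0 between times at 0.03 nM. Leaving out single libraries gave 0 to 1, 4 to 28, 22 to 35, 41 to 49, 23 to 38, 36 to 43, 1 to 24, 20 to 43 and 7 to 22, in the order of the counts above.

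Library totals, which lower the median of all genes at 10 nM, reversed 42 of the calls. Log2 changes became, at 10 nM for 1 h, Bag6 −0.12, Cct8 −0.015, Dnajb12 −0.016, Dnajb1 −0.084, Dnajb9 −0.011 and Hsp90ab1 −0.11; for 2 h, Bag1 −0.058, Bag6 −0.21, Cct2 −0.11, Cct4 −0.17, Cct5 −0.12, Cct7 −0.12, Dnajb11 −0.27, Dnajc13 −0.22, Dnajc2 −0.16, Dnajc8 −0.31, Hsf1 −0.16, Hsp90ab1 −0.039, Hsp90b1 −0.33, Hspa4 −0.26 and Hspa9 −0.22; between doses at 1 h, Bag6 −0.090, Cct2 −0.12, Dnajb1 −0.013, Hsp90ab1 −0.082, Hspa4 −0.14 and Hspa9 −0.12; and at 2 h, Bag1 −0.085, Bag6 −0.18, Cct2 −0.15, Cct4 −0.17, Cct5 −0.17, Cct6a −0.012, Cct7 −0.18, Dnajb5 −0.22, Dnajc1 −0.19, Hsf1 −0.055, Hsp90ab1 −0.049, Hspa14 −0.22, Hspa4 −0.25, Hspa9 −0.14 and Hspd1 −0.26. The co-chaperone Sugt1 became −0.13 at 1 h. A pair of alternatives was chosen after seeing the data: summing Hspa1a and Hspa1b kept 200 of 200 calls, and leaving out both libraries of 0.03 nM for 2 h kept 141 of 141 that could be tested. With 5 residual degrees of freedom the intervals on single genes were wide, so a member without a call is not shown to be unchanged.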
